A study of Mus musculus with 28 samples.

Results

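Wild-type (WT) mouse satellite cells kept in differentiation medium were compared with WT satellite cells proliferating in culture, to see what the shift from growth to differentiation medium does to their transcripts. The 4 libraries compared are the WT libraries of the deposited table for the differentiating state (2, called Diff) and the WT libraries of the deposited table for the proliferating state (2, called Cul). The series holds 28 samples in all, of which 18 are polyA RNA-seq libraries. The cells were satellite cells isolated by FACS from WT mice on a C57Bl/6 background. Cul cells were grown in Ham's F-10 with 20% fetal bovine serum, 12.5 ng/ml of the growth factor bFGF and antibiotics. Diff cells were placed in Ham's F-10 with 2% horse serum for 24 hours, per the labels. The tables name a library by its condition and an index (0 or 1), which matches no replicate number of the labels, so libraries are named Cul 0, Cul 1, Diff 0 and Diff 1 here. The index pairs no libraries. Whether the libraries of 1 group stem from different mice or cultures is not in the labels, and neither is the age of the mice, so a p-value here speaks only of the spread among these 4 libraries. The Xist levels given below differ within each group.

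Satellite cells are the stem cells of skeletal muscle. In culture with serum and FGF they divide as myoblasts that express MyoD, and when mitogens are withdrawn they leave the cell cycle, switch on myogenin, fuse and build sarcomeres. FGF acts through the ERK kinase cascade, whose own feedback inhibitors (Spry and Dusp genes) serve as a readout of the pathway. Serum also supplies cholesterol in lipoproteins. When cholesterol in the endoplasmic reticulum is low, the transcription factor SREBP2 is released to the nucleus and drives the genes of sterol synthesis and uptake.

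The promoters below belong to members of the gene groups on which the results turn, and are given as the 250 bases before the start site in RefSeq's annotation of GRCm38.p6, 5′ to 3′ on the gene's strand. The pair for sterol synthesis, whose genes were higher in both Diff libraries, is Idi1 (chr13:8885356-8885605, plus strand) and Cyp51 (chr5:4104698-4104947, minus strand). The pair for mitosis, whose genes were mostly lower in Diff 1 than in Diff 0, is Cdk1 (chr10:69352913-69353162, minus strand) and Top2a (chr11:99024190-99024439, minus strand). In these 4 sequences capitals mark CCAAT, the element bound by NF-Y, and TTTGAA, the core of the CHR element of mitotic genes, each on either strand (ATTGG and TTCAAA).
Idi1: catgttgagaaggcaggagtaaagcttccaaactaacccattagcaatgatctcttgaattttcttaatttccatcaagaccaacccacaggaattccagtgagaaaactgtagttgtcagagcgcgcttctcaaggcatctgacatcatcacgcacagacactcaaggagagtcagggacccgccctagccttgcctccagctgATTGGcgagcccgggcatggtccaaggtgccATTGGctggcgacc
Cyp51: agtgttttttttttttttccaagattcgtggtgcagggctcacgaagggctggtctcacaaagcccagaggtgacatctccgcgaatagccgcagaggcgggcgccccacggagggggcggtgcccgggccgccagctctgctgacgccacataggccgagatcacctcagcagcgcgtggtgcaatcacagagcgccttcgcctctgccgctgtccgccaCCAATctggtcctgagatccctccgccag
Cdk1: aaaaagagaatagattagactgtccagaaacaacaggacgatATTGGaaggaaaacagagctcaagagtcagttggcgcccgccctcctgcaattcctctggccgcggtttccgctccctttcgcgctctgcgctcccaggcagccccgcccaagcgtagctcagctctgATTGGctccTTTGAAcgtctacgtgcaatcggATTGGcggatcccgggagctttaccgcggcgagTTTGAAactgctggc
Top2a: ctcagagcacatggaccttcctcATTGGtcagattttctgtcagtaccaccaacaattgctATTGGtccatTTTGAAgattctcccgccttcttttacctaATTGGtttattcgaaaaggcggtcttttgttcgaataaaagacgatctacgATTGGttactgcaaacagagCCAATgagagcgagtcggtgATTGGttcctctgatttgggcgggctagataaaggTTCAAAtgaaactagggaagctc

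The next pair belongs to the sarcomere, whose genes were far higher in Diff 1 than in Diff 0. It is Acta1 (chr8:123894776-123895025, minus strand) and Mylpf (chr7:127211358-127211607, plus strand). Capitals mark CAGCTG, an E-box of the kind that myogenic factors bind, which reads the same on both strands.
Acta1: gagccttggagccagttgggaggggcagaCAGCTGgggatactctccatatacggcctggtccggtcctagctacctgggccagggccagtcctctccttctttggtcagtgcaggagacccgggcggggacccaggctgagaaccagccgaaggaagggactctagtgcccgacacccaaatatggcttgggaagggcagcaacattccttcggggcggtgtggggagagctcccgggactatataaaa
Mylpf: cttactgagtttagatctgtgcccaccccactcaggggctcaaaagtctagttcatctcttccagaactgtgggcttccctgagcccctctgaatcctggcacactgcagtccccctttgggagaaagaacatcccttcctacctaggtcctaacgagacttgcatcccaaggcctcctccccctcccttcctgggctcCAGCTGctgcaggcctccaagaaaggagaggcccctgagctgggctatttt

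Across the 32851 promoters of RefSeq's table, each 250 bases long, CCAAT was found on either strand in 33.8%, TTTGAA in 16% and CAGCTG in 13%. Of the sterol list, 17 of 25 genes were matched, and 16 of their 20 promoters (80.0%) held CCAAT. The G2/M list had CCAAT in 29 of 36 promoters (80.6%) and TTTGAA in 15 (41.7%), over 33 matched genes of 40. In other lists CCAAT ran from 0 of 10 for acetylcholine receptor and synapse genes to 2 of 3 for erythroid markers (66.7%). G1/S had it in 27 of 45 (60%), p53 targets in 10 of 17 (58.8%) and the sarcomere in 15 of 49 (30.6%). A CCAAT share above 33.8% was thus not particular to the sterol and G2/M lists. CAGCTG was found in 15 of 49 sarcomere promoters (30.6%, 41 matched genes of 52), in 7 of 17 of excitation-contraction coupling (41.2%, 14 of 23 genes) and in 11 of 23 of muscle energy metabolism (47.8%, 18 of 21 genes). Other muscle lists ran from 1 of 13 for the dystrophin complex (7.69%) to 4 of 10 for acetylcholine receptor and synapse genes (40%). Outside muscle, it was in 3 of 9 promoters of macrophage and leukocyte markers (33.3%) and in 0 of 18 of NRF2 targets. TCACNCCAC, a form of the sterol element that SREBP proteins bind (N for any base), was found in 1 of the 20 sterol promoters (5%) and in 1.05% of all. The letters were searched on both strands, and CCAAT and TTTGAA can share at most an end base. Such a match describes the sequence and is neither a binding site nor a cause, and promoters of 1 gene can share bases.

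Depth was 82590642 fragments in Cul 0, 77633034 in Cul 1, 82825550 in Diff 0 and 71858446 in Diff 1. Levels are given in CPM, counts scaled to a common library size (TMM over these 4 libraries), and a level is compared only with the same gene in other libraries. Of 22552 genes, 14186 were tested, 8350 were too low and 16 were left out because the authors' run did not mark them OK in every library. Between the groups, edgeR's quasi-likelihood test with Benjamini-Hochberg adjustment called 0 of 14186 genes (0%) at an adjusted p under 0.05, while 1548 genes had an unadjusted p under 0.05 (1217 higher in Diff, or 8.58%, and 331 lower, or 2.33%). DESeq2 called 821 genes, 700 higher (4.93%) and 121 lower (0.853%), and limma called 0. Because the main test called none, the genes below are described by their values. Both Diff libraries lay above both Cul libraries for 3483 genes (24.6%) and below both for 3140 (22.1%). These shares are the background for the counts of each gene group, called here "without overlap". Diff and Cul libraries come from separate tables, so the table and the state cannot be told apart.

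The 2 Diff libraries differed from each other far more than the 2 Cul libraries did. Diff 1 was more than 2-fold above Diff 0 for 2258 genes (15.9%) and more than 2-fold below it for 2935 (20.7%), against 1191 (8.40%) and 959 (6.76%) for Cul 1 against Cul 0. Across genes, log2 CPM correlated at 0.907 between the Diff libraries and at 0.969 between the Cul libraries; genes are not independent replicates. The fit takes this spread as error. Without Diff 0, edgeR called 2397 genes (1154 higher and 1243 lower), with the lone Diff library assumed to vary as the Cul libraries do. Without Diff 1 it called 0.

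Genes of sterol synthesis and uptake were higher in both Diff libraries. All 24 members tested lay above both Cul libraries without overlap, with a median log2 difference of 2.98, where the median over all genes was 0.026. Taken by library, the median was 2.19 in Diff 0 and 3.52 in Diff 1. edgeR called 0 of the 24 after adjustment, and DESeq2 called 22. The member Hmgcs1, an early enzyme of the mevalonate pathway, is listed at 0 in all 4 libraries and was not tested.

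Idi1, the isomerase that starts isoprenoid chains and whose promoter is printed above, was at 45.1 and 27.5 CPM in Cul 0 and Cul 1 and at 370 and 432 CPM in Diff 0 and Diff 1. Means were 36.3 ± 12.5 and 401.1 ± 43.9 CPM (SD, n = 2 each), a log2 difference of 3.47 ± 0.45 (SE; edgeR adjusted p = 0.227). Cyp51, the lanosterol demethylase, was at 33.2 and 21.6 CPM in Cul and 224 and 409 CPM in Diff (log2 3.53 ± 0.51, edgeR adjusted p = 0.227). Both genes were picked for a small p, which favours groups that stand apart. Sc4mol (now Msmo1), the sterol methyl oxidase, was at 31.6 and 29.0 CPM in Cul and 219 and 374 CPM in Diff. Insig1, which holds SREBP in the endoplasmic reticulum and is itself a target, was at 46.2 and 32.9 CPM in Cul and 278 and 266 CPM in Diff, so its 2 Diff libraries were nearly level. For several enzymes Diff 1 was the higher library by a wide margin. Fdps, farnesyl diphosphate synthase, was at 37.2 and 23.6 CPM in Cul and 262 and 1010 CPM in Diff. Mvd, mevalonate diphosphate decarboxylase, was at 7.16 and 7.83 CPM in Cul and 60.7 and 316 CPM in Diff. Fdft1, squalene synthase, was at 21.5 and 19.6 CPM in Cul and 142 and 412 CPM in Diff. In all, 12 of the 24 members were more than 2-fold higher in Diff 1 than in Diff 0, and 0 were more than 2-fold lower.

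Srebf2, which encodes SREBP2, differed less. It was at 181 and 176 CPM in Cul and 366 and 343 CPM in Diff (log2 0.99 ± 0.36), without overlap.

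**Figure D1:**
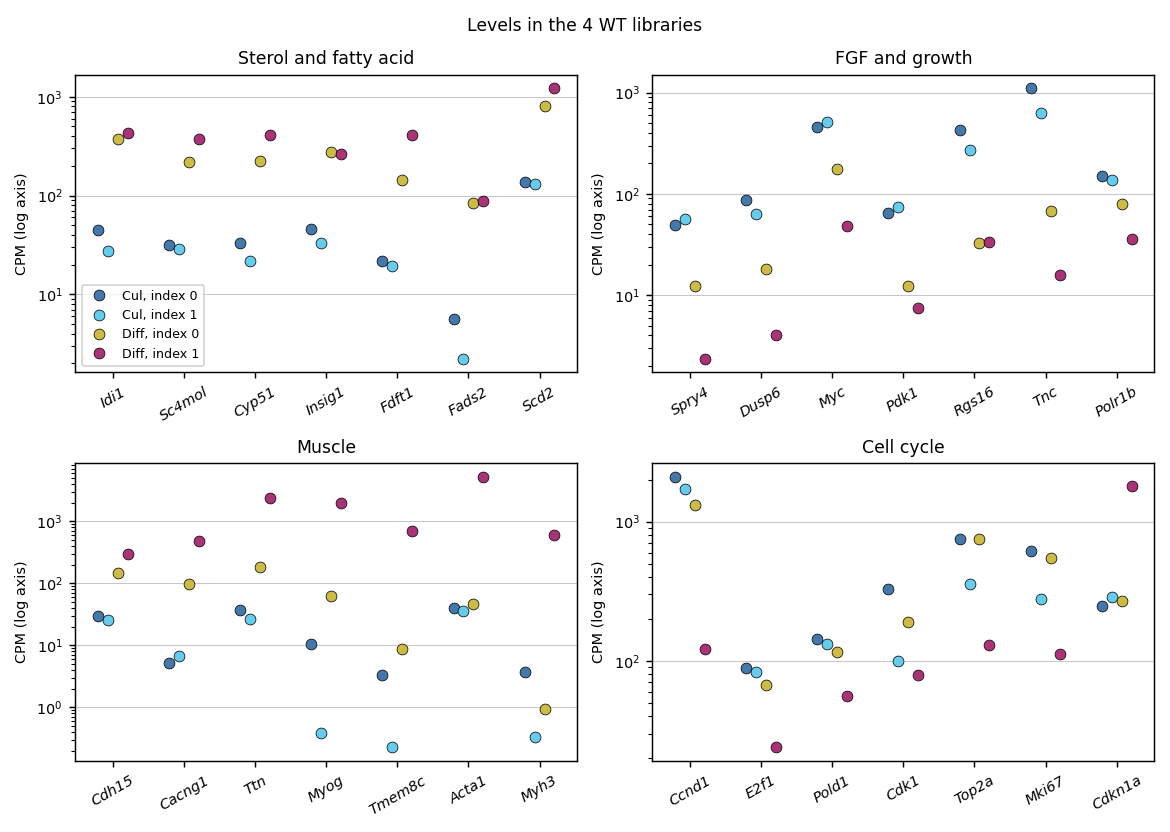
Level of 28 genes in the 4 WT libraries, in CPM on a log axis, one point per library; genes differ in length, so levels are compared within a gene. Both Diff points lie above both Cul points for the 7 sterol and fatty acid genes and below them for the 7 FGF and growth genes, whereas Diff 1 alone stands apart for several muscle genes (Acta1 at 46.0 and 5218 CPM in Diff) and for most cell cycle genes.

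Fatty acid genes were higher too, among them the desaturases. Of 15 members tested, 12 were higher without overlap and 1 lower, with a median log2 difference of 1.19 (1.18 in Diff 0 and 1.26 in Diff 1). DESeq2 called 6 of them. Fads2, which desaturates polyunsaturated fatty acids, was at 5.60 and 2.24 CPM in Cul and 84.7 and 88.2 CPM in Diff (log2 4.46 ± 0.58, edgeR adjusted p = 0.227). The stearoyl-CoA desaturase Scd2 was at 136 and 131 CPM in Cul and 802 and 1224 CPM in Diff (log2 2.92 ± 0.44). Its paralog Scd1 was at 31.0 and 56.4 CPM in Cul and 210 and 389 CPM in Diff. Acsl3, a long-chain acyl-CoA synthetase, was at 46.7 and 22.6 CPM in Cul, 92.7 CPM in Diff 0 and 337 CPM in Diff 1. The desaturase Fads1 differed less than Fads2, at 84.3 and 63.6 CPM in Cul and 166 and 203 CPM in Diff. Thrsp, a regulator of lipogenesis, was low throughout, at 0 and 0.0375 CPM in Cul and 0.445 and 3.32 CPM in Diff. Fatty acid synthase itself, Fasn, was near level, at 468 and 369 CPM in Cul and 475 and 479 CPM in Diff (log2 0.19 ± 0.38).

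Outside lipid synthesis, the genes with the smallest p-values among those higher in Diff without overlap were of mixed function. Ranking by p favours genes that are alike within each group, so likeness of the 2 Diff libraries is no result here. Tpsab1, a tryptase best known from mast cells, was at 1.14 and 2.17 CPM in Cul and 65.1 and 70.6 CPM in Diff. Its log2 difference was 5.35 ± 0.53 (SE; edgeR adjusted p = 0.227). Dclk1, a microtubule-associated kinase, was at 5.70 and 10.2 CPM in Cul and 242 and 172 CPM in Diff (log2 4.70 ± 0.51). Dhrs3, which reduces retinaldehyde, was at 2.00 and 0.937 CPM in Cul and 35.5 and 46.8 CPM in Diff. These 3 genes were picked for groups without overlap and a small p, so their separation is no result. Akap6, an anchor of protein kinase A in muscle, was at 3.02 and 3.04 CPM in Cul and 28.8 and 36.4 CPM in Diff. Pmp22, a membrane protein of peripheral myelin, was at 9.07 and 12.3 CPM in Cul and 103 and 76.3 CPM in Diff, and Tmem176a, a membrane protein, was at 7.15 and 6.09 CPM against 80.9 and 49.7 CPM.

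Several of these genes act on electrophiles and NADPH. Gstm2, a glutathione transferase, was at 4.11 and 3.55 CPM in Cul and 38.9 and 70.9 CPM in Diff. Aldh3a1, an aldehyde dehydrogenase, was at 3.46 and 7.97 CPM in Cul and 109 and 98.4 CPM in Diff (log2 4.18 ± 0.55). Idh1, the cytosolic isocitrate dehydrogenase that makes NADPH, was at 10.4 and 13.0 CPM in Cul and 89.8 and 140 CPM in Diff. The list of NRF2 targets, the antioxidant programme, had 10 of 19 members higher without overlap and 1 lower, with a median of 0.70, and DESeq2 called 6 higher. Nqo1, a quinone reductase, was at 20.2 and 62.7 CPM in Cul and 194 and 187 CPM in Diff (log2 2.20 ± 0.59, edgeR adjusted p = 0.333). Gstm1 was at 70.0 and 152 CPM in Cul and 364 and 513 CPM in Diff, and Gsta2 at 0.158 and 0.912 CPM in Cul and 9.77 and 20.1 CPM in Diff. Fragments of near-identical glutathione transferase genes may be divided between copies, which makes their single values uncertain. Cul 1 was the higher Cul library for all 3, and over the list Cul 1 exceeded Cul 0 by a median of 0.89 on the log2 scale, so part of the list's spread lies within Cul.

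The FGF response was lower in Diff, and lower again in Diff 1 than in Diff 0. Of 21 members, 13 were lower without overlap and 2 higher, with a median log2 difference of −1.07 (−0.58 in Diff 0 and −2.44 in Diff 1). DESeq2 called 5 lower and 1 higher. Spry4, a feedback inhibitor of FGF receptor signalling, was at 49.6 and 56.5 CPM in Cul, 12.4 CPM in Diff 0 and 2.36 CPM in Diff 1 (log2 −2.84 ± 0.80, edgeR adjusted p = 0.334). Dusp6, the ERK phosphatase, was at 86.1 and 63.9 CPM in Cul, 18.0 CPM in Diff 0 and 4.00 CPM in Diff 1 (log2 −2.77 ± 0.74). Dusp5, a nuclear ERK phosphatase, followed the same order with 70.7 and 59.7 CPM in Cul, 16 CPM in Diff 0 and 1.92 CPM in Diff 1. The order held as well for 2 transcription factors of the list. Etv4, an ETS factor downstream of FGF, was at 50.9 and 31.0 CPM in Cul, 14.8 CPM in Diff 0 and 4.37 CPM in Diff 1. Myc, the growth regulator, was at 461 and 515 CPM in Cul, 176 CPM in Diff 0 and 48.3 CPM in Diff 1 (log2 −2.13 ± 0.65).

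Not every gene of the list was lower. Fgfr4, an FGF receptor of differentiating myoblasts, was higher, at 17.4 and 16.3 CPM in Cul, 43.0 CPM in Diff 0 and 243 CPM in Diff 1 (log2 3.09 ± 0.82, edgeR adjusted p = 0.333). Egr1, an immediate early factor, was at 111 and 174 CPM in Cul, 484 CPM in Diff 0 and 25.6 CPM in Diff 1, so that the 2 Diff libraries lay on opposite sides of Cul. Its fitted difference of 0.84 ± 1.14 turned to −0.32 in limma's test. In the separate list of immediate early factors 12 of 26 were lower without overlap and 1 was higher, with a median of −0.48. Fosl1, Ier3, Egr1 and Myc are in both lists. Fosb, a partner in the AP-1 factor, was at 30.1 and 15.3 CPM in Cul and 1.98 and 0.669 CPM in Diff (log2 −4.09 ± 0.76).

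The single genes lower in Diff were of mixed function as well. Rgs16, which shuts off G-protein signals, was at 422 and 271 CPM in Cul and 32.4 and 33.2 CPM in Diff (log2 −3.40 ± 0.43, edgeR adjusted p = 0.227). Col13a1, a transmembrane collagen, was at 36.3 and 43.7 CPM in Cul and 3.43 and 3.0 CPM in Diff (log2 −3.64 ± 0.45, edgeR adjusted p = 0.227). Both genes were level between the Diff libraries, which a ranking by p favours. Tnc, tenascin C of the matrix around regenerating muscle, was at 1108 and 631 CPM in Cul and 67.3 and 15.8 CPM in Diff. Fn1, fibronectin, was at 252 and 178 CPM in Cul and 64.1 and 39.9 CPM in Diff. Cyr61, a matrix-associated signal that serum induces, was at 534 and 770 CPM in Cul and 183 and 195 CPM in Diff. The list of extracellular matrix genes as a whole had 11 of 29 higher and 5 lower without overlap and a median of 0.37. Col6a1, a chain of collagen VI, was among the higher, at 6.36 and 3.77 CPM in Cul and 23.9 and 43.0 CPM in Diff.

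Other genes low in both Diff libraries covered channels, enzymes and adaptors. Kcnf1, a potassium channel subunit, was at 27.6 and 36.0 CPM in Cul and 3.77 and 5.64 CPM in Diff. Adamts14, a protease of procollagen, was at 285 and 276 CPM in Cul and 72.3 and 45.4 CPM in Diff. Both were picked for being without overlap. Nt5e, the ectonucleotidase CD73, was at 34.6 and 23.8 CPM in Cul and 3.23 and 1.45 CPM in Diff. Mapk13, a p38 kinase, was at 32.0 and 47.4 CPM in Cul and 7.64 and 5.71 CPM in Diff, and Spsb1, an adaptor of ubiquitin ligases, was at 90.8 and 85.4 CPM against 25.0 and 23.2 CPM. Gal, the neuropeptide galanin, varied within Cul, with 566 and 127 CPM, and was at 19.9 and 8.82 CPM in Diff.

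Ribosome biogenesis genes were lower by small amounts than in these 2 Cul libraries. Against 2 further Cul libraries described below, the list's mean was higher in Diff 0 and lower in Diff 1. Of 24 members, 23 were lower without overlap and 0 higher, with a median log2 difference of −0.86 (−0.61 in Diff 0 and −1.23 in Diff 1); DESeq2 called 0. Polr1b, a subunit of RNA polymerase I, was at 149 and 138 CPM in Cul, 78.8 CPM in Diff 0 and 35.8 CPM in Diff 1 (log2 −1.33 ± 0.47, edgeR adjusted p = 0.406). Wdr43, a factor of pre-ribosomal RNA processing, was at 370 and 307 CPM in Cul and 198 and 83.7 CPM in Diff. Mybbp1a, a nucleolar protein, was at 1038 and 786 CPM in Cul and 506 and 382 CPM in Diff.

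Glycolysis held genes on both sides. Of 21 members, 8 were lower and 6 higher without overlap, with a median of 0.14. Among the lower, Pdk1, the kinase that blocks pyruvate dehydrogenase, was at 64.3 and 74.4 CPM in Cul and 12.2 and 7.51 CPM in Diff (log2 −2.82 ± 0.44, edgeR adjusted p = 0.243). Pfkfb3, which makes the activator of phosphofructokinase, was at 47.6 and 34.1 CPM in Cul and 11.1 and 5.30 CPM in Diff. Pfkl, the liver-type phosphofructokinase, was at 207 and 202 CPM in Cul and 67.1 and 86.2 CPM in Diff, and Ldha, lactate dehydrogenase A, at 2639 and 1517 CPM against 700 and 890 CPM. Those higher included Ldhb, the other lactate dehydrogenase chain, at 15.6 and 13.7 CPM in Cul and 46.5 and 94.0 CPM in Diff. Pgam2, the muscle form of phosphoglycerate mutase, was at 0.762 and 0.312 CPM in Cul, 3.17 CPM in Diff 0 and 240 CPM in Diff 1.

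The muscle programme was the group in which the 2 Diff libraries were farthest apart. Of 52 sarcomere genes, 45 were tested and 7 were too low. The median log2 difference from Cul was 1.44 in Diff 0 and 6.87 in Diff 1, and 43 of the 45 were more than 2-fold higher in Diff 1 than in Diff 0 (background 15.9%). Between the groups 27 of the 45 were higher without overlap, 0 were lower, and DESeq2 called 27. By these medians Diff 0 lay nearer to Cul than to Diff 1. In bulk RNA, more cells that express a gene and more RNA of it per cell cannot be told apart.

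In Diff 0 some members lay within the range of Cul or not far above it. Acta1, skeletal alpha actin, was at 39.6 and 36.0 CPM in Cul, 46.0 CPM in Diff 0 and 5218 CPM in Diff 1. Myh3, embryonic myosin heavy chain, was at 3.72 and 0.325 CPM in Cul, 0.946 CPM in Diff 0 and 594 CPM in Diff 1, the groups overlapping. Mylpf, the fast regulatory light chain, was at 9.26 and 0.912 CPM in Cul, 13.3 CPM in Diff 0 and 1890 CPM in Diff 1. Without Diff 1 the log2 difference was 0.26 for Acta1, −1.12 for Myh3 and 1.36 for Mylpf, against 6.12, 7.20 and 7.55 with it. Other members lay further above Cul in Diff 0. Ttn, the giant spring protein titin, was at 37.3 and 26.7 CPM in Cul, 185 CPM in Diff 0 and 2380 CPM in Diff 1 (log2 5.32 ± 1.23, edgeR adjusted p = 0.310). Smyd1, a methyltransferase needed for myosin assembly, was at 4.23 and 2.06 CPM in Cul, 27.7 CPM in Diff 0 and 187 CPM in Diff 1. Mybpc1, a myosin-binding protein, was at 2.52 and 1.72 CPM in Cul, 15.7 CPM in Diff 0 and 184 CPM in Diff 1, and Kbtbd5 (now Klhl40), a thin filament stabiliser, was at 1.68 and 1.37, 14.3 and 122 CPM in the same order.

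**Figure D2:**
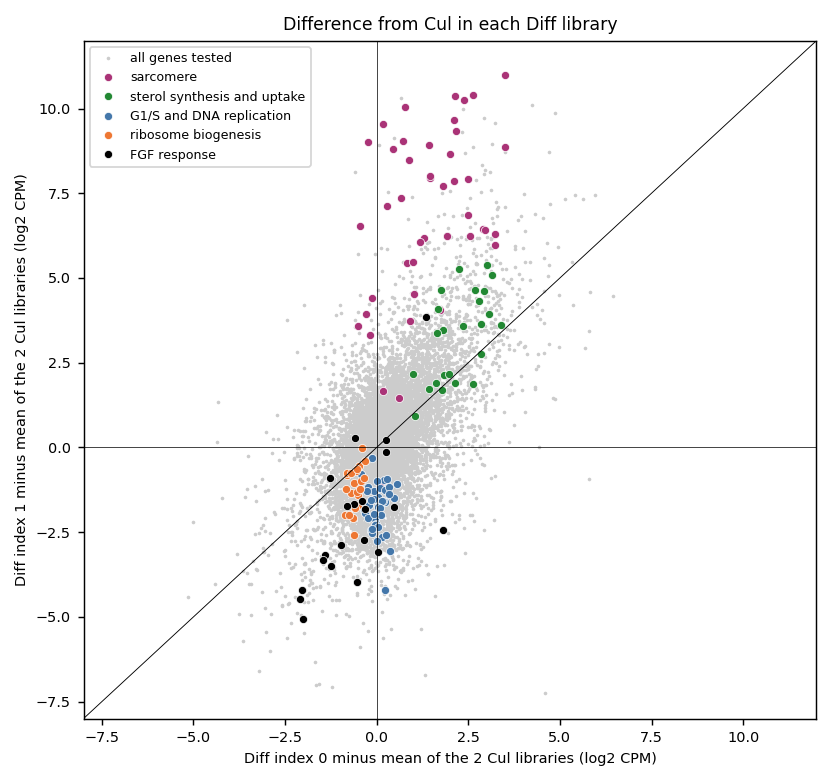
Difference of Diff 0 (horizontal) and of Diff 1 (vertical) from the mean of the 2 Cul libraries, in log2 CPM, for each of 14186 genes, with members of 5 lists in colour and the diagonal where both are equal. Sterol genes lie to the upper right near or above the diagonal, sarcomere genes far above it (medians 1.44 and 6.87), G1/S genes near 0 on the horizontal axis and below 0 on the vertical one (medians 0.02 and −1.70).

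The systems that serve contraction showed the same order. Excitation-contraction coupling had 16 of 22 members higher without overlap, with medians of 1.06 in Diff 0 and 4.23 in Diff 1, and DESeq2 called 12. Cacng1, the gamma subunit of the muscle calcium channel, was at 5.16 and 6.60 CPM in Cul, 96.2 CPM in Diff 0 and 490 CPM in Diff 1 (log2 5.64 ± 0.89, edgeR adjusted p = 0.256). Ryr1, the calcium release channel, was at 18.0 and 9.58 CPM in Cul, 29.6 CPM in Diff 0 and 433 CPM in Diff 1, and Atp2a1, the calcium pump of fast fibres, at 6.70 and 13.3, 30.5 and 565 CPM. Cacng1 was thus already well above Cul in Diff 0, whereas Ryr1 was only slightly so. The dystrophin complex had 11 of 14 higher without overlap (median 2.16; 1.27 in Diff 0 and 2.61 in Diff 1). Muscle energy metabolism had 13 of 18 higher without overlap (1.05 in Diff 0 and 3.77 in Diff 1). Fabp3, a fatty acid carrier, was at 0.539 and 1.01 CPM in Cul, 6.86 CPM in Diff 0 and 76.0 CPM in Diff 1.

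Small heat shock proteins that protect muscle filaments were part of this pattern. Hspb8 was at 17.0 and 17.3 CPM in Cul, 157 CPM in Diff 0 and 1273 CPM in Diff 1 (log2 5.38 ± 1.05, edgeR adjusted p = 0.300). Cryab, alpha-B crystallin, was at 39.9 and 66.3 CPM in Cul, 172 CPM in Diff 0 and 850 CPM in Diff 1. The list of heat shock chaperones, which shares both, held 9 of 17 higher without overlap and a median of 0.27.

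Genes of cell fusion and of the synapse were divided. The fusion and adhesion list had 8 of 23 higher and 5 lower without overlap (median 0.41), so its share was close to the background of 24.6%. Its fusogens were nonetheless high in Diff 1. Tmem8c (myomaker, now Mymk) was at 3.32 and 0.225 CPM in Cul, 8.55 CPM in Diff 0 and 701 CPM in Diff 1, and Gm7325 (myomixer, now Mymx) at 0.328 and 0.0125, 3.01 and 48.7 CPM. Cdh15, M-cadherin, was at 29.3 and 25.4 CPM in Cul, 147 CPM in Diff 0 and 296 CPM in Diff 1 (log2 3.02 ± 0.48, edgeR adjusted p = 0.256). Of 11 acetylcholine receptor and synapse genes, 3 were higher without overlap. Rapsn, which clusters the receptor, was at 50.7 and 66 CPM in Cul, 148 CPM in Diff 0 and 245 CPM in Diff 1, while Chrng, the fetal receptor subunit, was at 10.4 and 6.45, 9.87 and 479 CPM and so was high in Diff 1 alone.

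**Figure D3:**
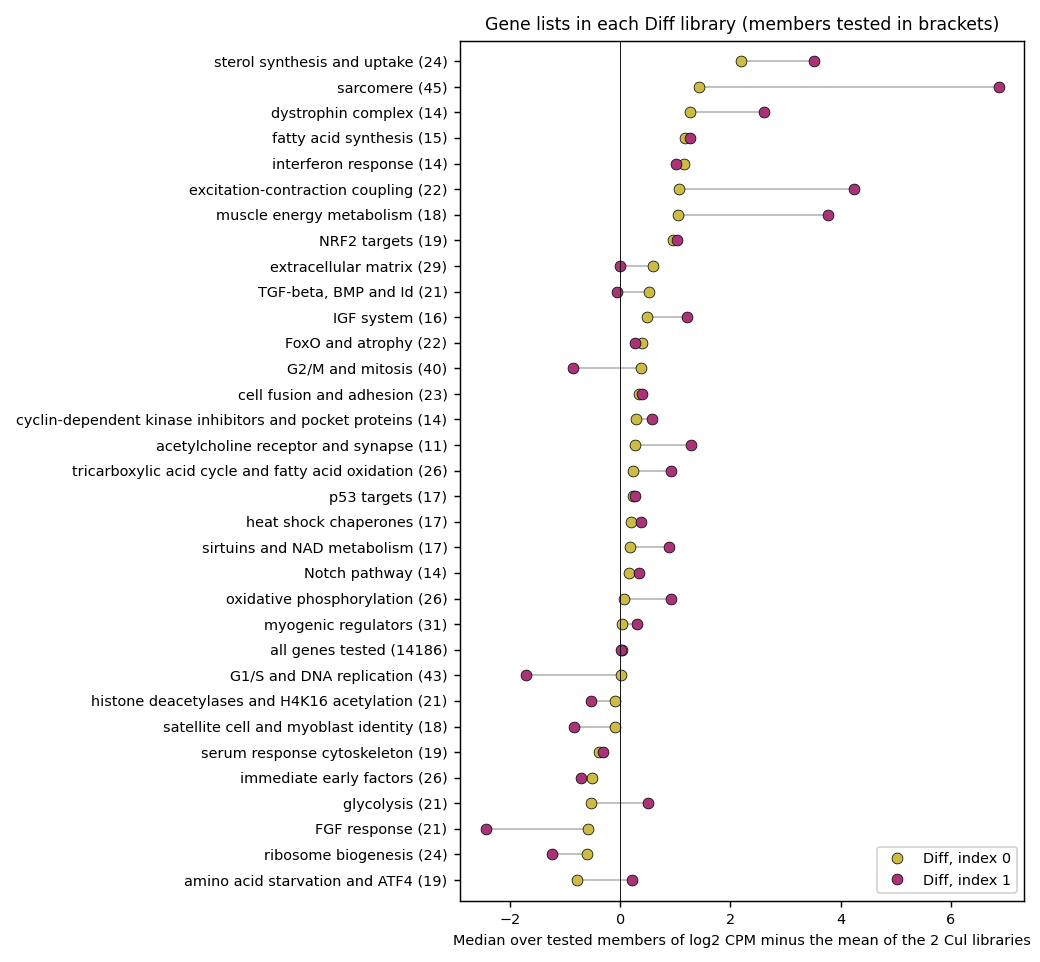
Median over tested members of the log2 CPM difference from the mean of the 2 Cul libraries, one row per gene list with its number of tested members, with a point for Diff 0 and one for Diff 1. The points lie close together for fatty acid synthesis (1.18 and 1.26) and far apart for the sarcomere (1.44 and 6.87) and for G1/S (0.02 and −1.70).

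The regulators of myogenesis divided along the same line. Myog, myogenin, was at 10.5 and 0.387 CPM in Cul, 61.3 CPM in Diff 0 and 1956 CPM in Diff 1 (log2 7.53 ± 2.26, edgeR adjusted p = 0.341). Mef2c, its partner factor, was at 0.460 and 0.312 CPM in Cul, 3.49 CPM in Diff 0 and 29.0 CPM in Diff 1 (log2 5.39 ± 1.15). Both were above Cul in both Diff libraries, with Diff 1 the higher. Myod1 overlapped between the groups, at 2157 and 1982 CPM in Cul, 1042 CPM in Diff 0 and 2203 CPM in Diff 1. Myf5, the other early determination factor, was at 149 and 74.9 CPM in Cul and 45.6 and 40.6 CPM in Diff (log2 −1.38 ± 0.45, edgeR adjusted p = 0.370). Pax7, the satellite cell factor, was at 105 and 106 CPM in Cul, 76.5 CPM in Diff 0 and 36.2 CPM in Diff 1 (log2 −0.90 ± 0.46). Sirt1, the deacetylase that the series is about, was at 63.8 and 68.6 CPM in Cul, 52.2 CPM in Diff 0 and 27.4 CPM in Diff 1 (log2 −0.74 ± 0.44, edgeR adjusted p = 0.596).

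Most G1/S and G2/M genes were lower in Diff 1 than in Diff 0, and most lay within the range of Cul in Diff 0. Of 43 genes of G1/S and DNA replication, 40 were more than 2-fold lower in Diff 1 than in Diff 0 (background 20.7%), and the median difference from Cul was 0.02 in Diff 0 and −1.70 in Diff 1. Between the groups 6 were lower without overlap and 0 higher, and DESeq2 called 0. Ccnd1, cyclin D1, was at 2098 and 1731 CPM in Cul, 1307 CPM in Diff 0 and 121 CPM in Diff 1. E2f1, the S-phase transcription factor, was at 88.8 and 82.9 CPM in Cul, 66.9 CPM in Diff 0 and 23.9 CPM in Diff 1, and Pold1, a DNA polymerase delta subunit, at 143 and 132, 115 and 56.1 CPM. Ccnd1, E2f1 and Pold1 were among the 6 lower without overlap, so they lay below these 2 Cul libraries in Diff 0 too. With the 2 further Cul libraries described below, 0 of the 43 lay below all 4. Of 40 G2/M genes, 29 were more than 2-fold lower in Diff 1 than in Diff 0, and 0 were without overlap between the groups in either direction. The Cul libraries differed here too, Cul 1 lying below Cul 0 by a median of −1.33 on the log2 scale. Cdk1, the mitotic kinase, was at 326 and 100 CPM in Cul, 191 CPM in Diff 0 and 78.9 CPM in Diff 1. Top2a, the topoisomerase of dividing cells, was at 755 and 356 CPM in Cul, 745 CPM in Diff 0 and 129 CPM in Diff 1, and Mki67, the proliferation marker Ki-67, was at 616 and 277, 552 and 112 CPM. For Cdk1, Top2a and Mki67, Diff 0 lay between the 2 Cul libraries and Diff 1 below both. Over the G2/M list, Diff 1 lay below both Cul libraries for 25 of 40 genes, against 6069 of all 14186 genes. Cdkn1a, the inhibitor p21, was at 248 and 288 CPM in Cul, 267 CPM in Diff 0 and 1819 CPM in Diff 1 (log2 1.96 ± 0.86, edgeR adjusted p = 0.482).

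The largest differences between the 2 Diff libraries, among genes at 20 CPM or more in the higher one, are given as a description with no test. Those higher in Diff 1 were muscle genes. Hrc, a calcium-binding protein of the sarcoplasmic reticulum, was at 0.276 and 0 CPM in Cul, 0.114 CPM in Diff 0 and 110 CPM in Diff 1. Csrp3, muscle LIM protein, was at 0.145 and 0.025 CPM in Cul, 0.0798 CPM in Diff 0 and 68.4 CPM in Diff 1, and Ckm, muscle creatine kinase, was at 0.512 and 0.137, 0.171 and 83.5 CPM. These were near 0 in all libraries but Diff 1. The others of this kind were Myh8, Myh3, Igfn1, Smpx, Tnnc1, Tnni1 and Mybph, with log2 differences between the Diff libraries of 8.23 to 9.27. Those lower in Diff 1, after Xist, included Car12, a carbonic anhydrase, at 9.62 and 58.5 CPM in Cul, 26.6 CPM in Diff 0 and 0.456 CPM in Diff 1. Mybl1, the factor A-Myb, was at 18.6 and 19.3 CPM in Cul, 39.5 CPM in Diff 0 and 1.03 CPM in Diff 1. Slfn9 was at 42.8 and 43.7 CPM in Cul, 64.5 CPM in Diff 0 and 2.89 CPM in Diff 1. For these genes Diff 0 stayed within or above the range of Cul.

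Growth factor and Notch genes held members of each kind. The IGF system had 6 of 16 higher and 3 lower without overlap. Igf2, an autocrine signal of differentiating myoblasts, was at 10.5 and 9.16 CPM in Cul, 25.5 CPM in Diff 0 and 991 CPM in Diff 1. Its neighbour H19, a non-coding RNA, was at 132 and 42.5 CPM in Cul, 287 CPM in Diff 0 and 6666 CPM in Diff 1. Irs1, the docking protein of the insulin and IGF receptors, was lower, at 87.8 and 102 CPM in Cul and 38.9 and 31.7 CPM in Diff (log2 −1.42 ± 0.36, edgeR adjusted p = 0.333). Igfbp6, an IGF-binding protein, was at 0.907 and 4.11 CPM in Cul, 11.5 CPM in Diff 0 and 58.5 CPM in Diff 1. The Notch list had 4 of 14 higher and 4 lower. Notch3, a receptor, was at 5.81 and 5.75 CPM in Cul and 52.8 and 33.1 CPM in Diff (log2 2.89 ± 0.46, edgeR adjusted p = 0.256), and Jag1, a ligand, was at 35.1 and 27.4 CPM in Cul and 15.6 and 4.63 CPM in Diff. Among genes of NAD metabolism, Itgb1bp3 (now Nmrk2), the muscle nicotinamide riboside kinase, was at 1.94 and 5.50 CPM in Cul, 11.7 CPM in Diff 0 and 387 CPM in Diff 1.

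Mitochondrial genes differed little in Diff 0 and more in Diff 1. The tricarboxylic acid cycle and fatty acid oxidation list had 12 of 26 higher without overlap and 0 lower (medians 0.24 in Diff 0 and 0.92 in Diff 1), and oxidative phosphorylation had 5 of 26 higher and 0 lower (0.060 and 0.93). Ppargc1a, the coactivator PGC-1 alpha, was at 0.447 and 0.812 CPM in Cul, 2.82 CPM in Diff 0 and 9.57 CPM in Diff 1. Cpt1b, which admits fatty acids to muscle mitochondria, was at 3.74 and 6.20 CPM in Cul, 12.4 CPM in Diff 0 and 73.3 CPM in Diff 1. Interferon response genes had 9 of 14 higher and 0 lower without overlap, with medians of 1.15 in Diff 0 and 1.01 in Diff 1. These genes were low, the list summing to 48.7 and 78.9 CPM in Cul and to 143 and 106 CPM in Diff. Among them, Stat2, a signal transducer, was at 5.15 and 7.73 CPM in Cul, 17.7 CPM in Diff 0 and 41.2 CPM in Diff 1. Amino acid starvation and ATF4 genes had 5 of 19 lower and 0 higher, with medians of −0.79 in Diff 0 and 0.21 in Diff 1, so the 2 libraries lay on opposite sides of Cul. Trim63, a ubiquitin ligase of muscle atrophy, was at 0.394 and 0.0625 CPM in Cul, 1.43 CPM in Diff 0 and 51.4 CPM in Diff 1, and its list of FoxO and atrophy genes had 6 of 22 higher and 3 lower.

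The remaining lists had members on both sides or few without overlap. Higher and lower without overlap were 7 and 5 of 21 for TGF-beta, BMP and Id genes, 6 and 3 of 17 for p53 targets, 8 and 3 of 17 for sirtuins and NAD metabolism, and 9 and 5 of 31 for myogenic regulators. They were 3 and 8 of 21 for histone deacetylases and H4K16 acetylation, 3 and 7 of 19 for the serum response cytoskeleton, 3 and 6 of 18 for satellite cell and myoblast identity and 2 and 0 of 14 for cyclin-dependent kinase inhibitors and pocket proteins.

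Of the genes that define myoblasts, Myod1 was present in every library at the levels above, as was Des, the muscle intermediate filament desmin, at 367 and 733 CPM in Cul and 1295 and 3307 CPM in Diff. Markers of other cell types were summed in CPM over each list in the order Cul 0, Cul 1, Diff 0, Diff 1. Fibroblast markers summed to 209, 84.6, 433 and 288, with 7 of 12 tested members higher in Diff without overlap. Schwann cell markers summed to 43.1, 56.6, 218 and 151, with 4 of 9 higher, and Pmp22 (given above) and Ngfr, at 19.2 and 27.4 CPM in Cul and 96.0 and 50.0 CPM in Diff, made up most of the sum in Diff. Leukocyte markers stayed between 12.5 and 15.6, endothelial markers between 17.4 and 48.5 and adipocyte markers between 16.5 and 50.6. Lymphocyte and erythroid markers summed to at most 1.14 in any library. Pericyte and smooth muscle markers, a list that holds Des and Notch3, summed to 489, 800, 1516 and 4898. The part of other cells in the results above was not tested. Xist, expressed from the inactive X of females, was at 1.09 CPM in Cul 0, 2348 in Cul 1, 1236 in Diff 0 and 0.313 in Diff 1, so each group held 1 library with high and 1 with low Xist. Ddx3y, a Y-linked gene, was at 90.9, 33.2, 28.2 and 38.8 CPM. The labels do not give the sex of the animals, and the low-Xist library of Diff is the one with the high muscle genes.

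A further 2 WT Cul libraries lie in the table of WT states, with 25518871 and 31643216 fragments, and were used as a check. Both Diff libraries lay above all 4 Cul libraries for 1460 of 14917 genes (9.79%) and below all 4 for 1281 (8.59%). Of 24 sterol genes tested there, 22 lay above all 4, as did 9 of 15 fatty acid genes and 10 of 19 NRF2 targets. Of the FGF response, 7 of 20 lay below all 4, and of ribosome biogenesis 5 of 24. The lists of muscle function had a smaller share above all 4 than the sterol, fatty acid and NRF2 lists. Above all 4 lay 4 of 23 genes of excitation-contraction coupling, 3 of 14 of the dystrophin complex and 5 of 19 of muscle energy metabolism. Of acetylcholine receptor and synapse genes, 3 of 11 did. The same held for the interferon response (3 of 16), heat shock chaperones (2 of 17) and fibroblast markers (0 of 13), and 8 of 26 genes of the tricarboxylic acid cycle and fatty acid oxidation lay above all 4. Of 51 sarcomere genes, 2 lay above all 4, and the further library of index 0 was itself high in them. There, on a scale joining all libraries, Myog was at 677 CPM and Acta1 at 1222 CPM, against 62.9 and 47.3 CPM in Diff 0. With all 4 Cul libraries edgeR called 1 gene, Tpsab1 (log2 5.23, adjusted p = 0.0287), which was at 1.91 and 2.03 CPM in the further libraries.

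**Figure D4:**
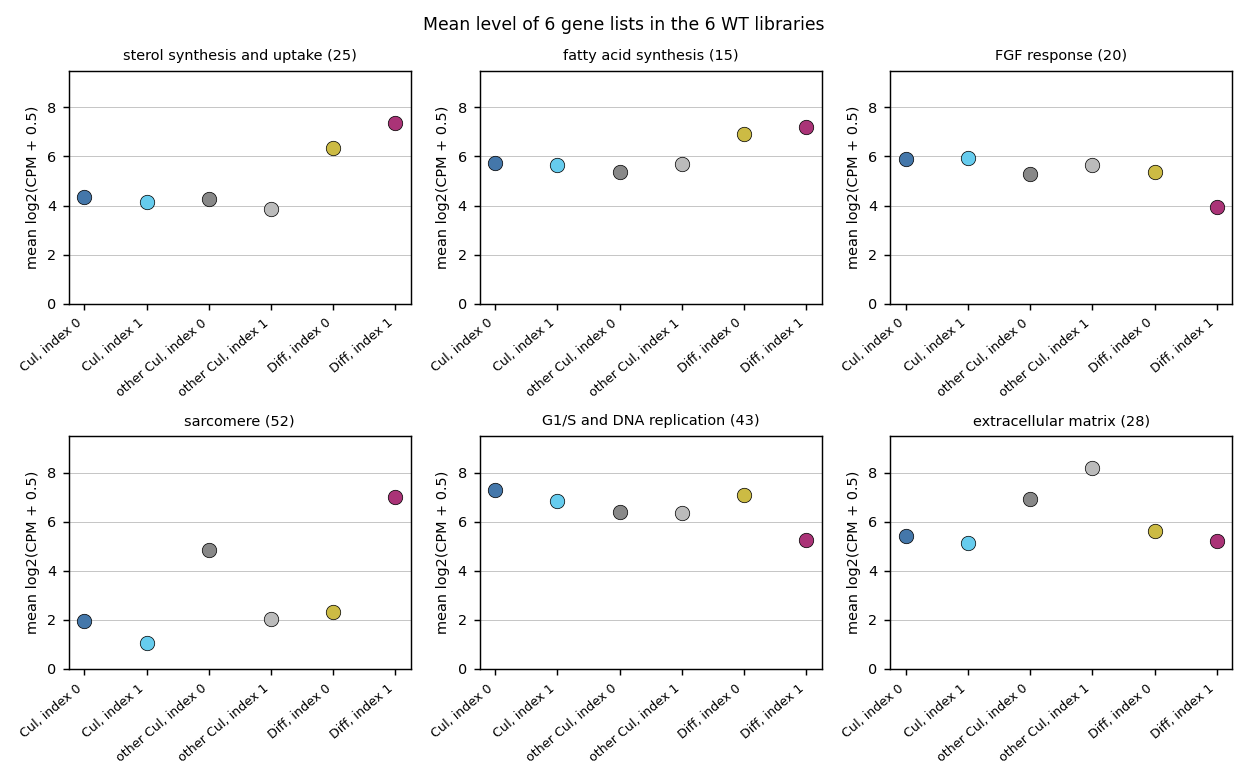
Mean log2(CPM + 0.5) of 6 gene lists in the 6 WT libraries of the Cul and Diff states, on one scale for all, with the number of genes in brackets. Sterol genes lie between 3.87 and 4.36 in the 4 Cul libraries and at 6.33 and 7.35 in Diff, whereas the further Cul library of index 0 has a higher sarcomere level (4.86) than Diff 0 (2.33). For the FGF response, Diff 0 (5.39) lies between the 2 further Cul libraries (5.28 and 5.65).

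The further Cul libraries also differed from the first pair in other ways. Their extracellular matrix genes averaged 6.95 and 8.19 on the log2(CPM + 0.5) scale, against 5.42 and 5.12 in the first pair and 5.64 and 5.21 in Diff. Schwann cell markers averaged 4.67 and 6.05, against 1.78 and 1.95, and fibroblast markers 3.33 and 3.76, against 0.94 and 0.89. Some genes with many near-identical copies were also far lower in that table, for example Actg1 at 9.42 and 11.1 CPM against 4240 and 2348 CPM, and Idi1 at 0.838 and 1.47 CPM, so the values of such genes are uncertain there. For Notch3 (30.3 and 56.1 CPM) and Mef2c (20.4 and 50.9 CPM) the further libraries overlapped with Diff or lay above Diff 0.

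The same 2 tables hold 2 libraries per state of SIRT1mKO cells, in which Cre from a Pax7 knock-in deletes a floxed exon of Sirt1 that encodes part of the deacetylase domain. The difference between Diff and Cul was compared between WT and SIRT1mKO in 1 fit over 8 libraries, and edgeR called 0 of 14843 genes (0%), with 36 at an unadjusted p under 0.05. DESeq2 and limma each called 0 as well. With 2 libraries per group and a wide spread within Diff, a lack of calls does not show that the effects were alike. The SIRT1mKO Diff libraries were also unlike each other. Myog was at 153 and 3783 CPM in them and at 62.9 and 2027 CPM in WT on the same scale. Idi1 was at 211 and 790 CPM in SIRT1mKO Diff, against 380 and 448 CPM in WT Diff.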

How the data were processed

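The deposited values are raw fragments per gene and library, estimated counts written by Cuffdiff per the file headers, and not all are whole numbers. Per the submitters' processing notes, Bowtie, TopHat, Cuffdiff and the mouse build mm9 were used; no version is stated there. The deposited FPKM were not analysed. The proliferating table was assigned to Cul by elimination. The 2 tables were joined by gene symbol, genes not marked OK in every library were left out, and counts were rounded. They were fitted with edgeR 4.0.16 (TMM, filterByExpr, robust quasi-likelihood F test; R 4.3.3), with Benjamini-Hochberg adjustment over 14186 genes and a threshold of 0.05, over the 4 libraries alone. Alternatives used DESeq2 1.42.0, limma 3.58.1 (trend) and the settings given under the dependence on processing. The fits were run on simulated counts with known changes and the same spread in every library. That checks the code and does not speak to the unequal spread of the Cul and Diff pairs. Log2 values per library use a prior count of 2. Strand and the sharing of fragments between near-identical copies are not stated, so such genes are uncertain.

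The genes compared and the 41 lists were chosen with earlier results of these data known. Named genes were up to 12 in each direction, ranked by p among those without overlap and with a mean of at least 5 CPM in the higher group, because fewer than 16 genes passed; up to 10 in each direction for the Diff pair at 20 CPM or more; and up to 6 members per list. Srebf2, Mvd, Fdps, Fasn, Hmgcs1, Top2a, Mki67 and Actg1 fall outside that rule and were named after their values were seen. Some genes are not reported here. Promoter sequences are RefSeq's (GRCm38.p6), matched by symbol. Whether fragments of the 2 libraries of a group agree within counting noise was checked by chi-square. Per degree of freedom it was 252.6 for the Cul pair and 987.1 for the Diff pair, so neither pair holds copies of 1 library. Other pairs of libraries were not checked in this way.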

Additional observations from a re-analysis of the deposited data

How the results depend on the processing

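The count of genes called between Diff and Cul, 0 as reported, stayed at 0 with limma, with RLE size factors and with the spread taken over 8 libraries. It was 821 with DESeq2, 56 with no filter on low counts, 292 with the other 2 WT Cul libraries in place of the first pair and 1 with all 4 Cul libraries. Leaving out each library in turn gave 0 to 2397 genes: 2397 without Diff 0, 3 without Cul 1 and 0 otherwise. The replicate block (table index, which pairs nothing in the labels, with a correlation of −0.124 between same-index deviations) gave 55 genes; a crossed pairing, chosen after seeing the data, gave 278. The count of genes called for a state effect differing between WT and SIRT1mKO stayed at 0 with DESeq2, limma and RLE size factors. It was also 0 with no filter on low counts and with the replicate block. Genes above Cul without overlap fell from 3483 to 1460, and those below from 3140 to 1281, when all 4 Cul libraries had to be passed.

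Of the log2 differences of named genes, 1163 values under an alternative kept their sign and side of the threshold, 285 kept their sign and passed it, and 44 changed sign; the cause was not tested. With the other 2 Cul libraries the value was −0.0079 for Notch3, −1.13 for Mef2c, 0.010 for E2f1, 0.41 for Pold1, 0.049 for Mki67, 0.56 for Pax7, 0.33 for Myod1, −0.85 for Col6a1, −0.88 for Ngfr, 0.95 for Slfn9 and 8.06 for Actg1. With all 4 it was −0.12 for Mef2c, −0.089 for Ngfr, 0.14 for Slfn9 and 0.76 for Actg1. Egr1 and Mybl1 were at −0.3191 and −1.559 with limma, −0.3175 and −1.54 with the replicate block and −0.3176 and −1.535 with the crossed pairing. Leaving out 1 library at a time, the range was −2.50 to 1.74 for Egr1, −1.12 to 9.80 for Myh3, −0.029 to 2.74 for Cdkn1a, −1.46 to 0.40 for Cdk1, −2.13 to 0.40 for Top2a, −2.02 to 0.28 for Mki67, −1.01 to 0.066 for Myod1, −11.89 to 9.14 for Xist, −0.29 to 15.08 for Hrc, −0.10 to 10.30 for Csrp3, −0.94 to 8.20 for Ckm, −1.10 to 15.83 for Myh8, −0.78 to 13.34 for Igfn1, −0.22 to 13.56 for Smpx, −0.34 to 9.51 for Tnnc1, −0.61 to 10.43 for Tnni1, −6.24 to 0.49 for Car12, −4.23 to 1.03 for Mybl1, −3.93 to 0.55 for Slfn9 and −0.60 to 0.27 for Actg1. Of the list medians, 439 values under an alternative moved by less than the spread and 55 by more, 29 of these with the other 2 or all 4 Cul libraries. With the other 2, the median was −1.92 for extracellular matrix, 0.019 for the interferon response, 0.65 for the dystrophin complex, −0.26 for Notch, 1.46 for NRF2 targets and 1.44 for glycolysis. Without Diff 1 it was 0.85 for the sarcomere and 1.01 for excitation-contraction coupling, and without Diff 0 it was −2.50 for the FGF response. Depth bears on the 8350 genes too low to test.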
